A study of Homo sapiens with 3 samples.

Results

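The 37 genes described here encode aldehyde dehydrogenases (ALDH), alcohol dehydrogenases (ADH) and aldo-keto reductases (AKR). They were targeted by 370 of the 30197 guide RNAs of a pooled CRISPR knockout library that covers 2978 metabolic genes. The genes are those of the library whose symbol starts with ALDH, AKR or ADH and a digit, except ALDH18A1, which meets the name rule but was left out by name and is described at the end. They comprised 18 ALDH genes, 12 AKR genes and 7 ADH genes. The screen was carried out in MIA PaCa-2, an established human pancreatic ductal adenocarcinoma line, transduced with the lentiviral library and selected with puromycin. Transduced cells were cultured for 14 days with apilimod, a small-molecule PIKfyve inhibitor, or for 14 days with the solvent DMSO, and the initial population was collected untreated at day 0. The labels put apilimod at 200 nM and the methods of the study state a different dose for the arm of that length, which leaves the dose unsettled. Each group was a pool of cells of a single line and gave 1 library, so differences between cultures could not be measured and no comparison below carries a test. Guide counts hold no expression values, so whether MIA PaCa-2 cells express a given gene was not examined.

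These enzymes interconvert alcohols, aldehydes, ketones and acids. Alcohol dehydrogenases oxidise ethanol, retinol and other alcohols to aldehydes with NAD+, aldehyde dehydrogenases oxidise aldehydes onward to carboxylic acids, and aldo-keto reductases run in the reductive direction, turning aldehydes and ketones into alcohols with NADPH. They handle reactive aldehydes from lipid peroxidation, ethanol, amino acids and amines, and they also make or remove signalling molecules such as retinoic acid and steroids. In pancreatic tumours, high ALDH activity is widely used to mark cells with tumour-initiating capacity, and AKR1B10 and the AKR1C genes are known targets of the transcription factor NRF2.

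Some members closely resemble each other in sequence, which bears on what a single-gene knockout can report. For 13 of the 37 genes, the nearest relative among the members had over 80% protein identity. By the GENCODE annotation of GRCh38, 22 of the 37 genes lay in 6 clusters, with neighbours less than 500000 bases apart. Clusters were set by distance alone, and the one on chr1 joins ALDH4A1 to AKR7A2 and AKR7A3. All 7 ADH genes lay together at chr4:99070978-99435510, and AKR1E2, AKR1C1, AKR1C2, AKR1C3 and AKR1C4 lay at chr10:4786629-5218949. In protein sequence AKR1C1 and AKR1C2 were 97.8% identical, ADH1B and ADH1C 94.4%, and AKR1B10 and AKR1B15 86.7%. The coding exons of 20 genes held at least 1 possible Cas9 target (20 bases followed by the NGG motif that Cas9 needs) that was present letter for letter in another member, and in 13 genes this applied to over 10% of such targets, with AKR1C2 at 81.2%, AKR1C1 at 77% and ADH1B at 63.3%. The following coding-exon sites, read from the reference genome, show this sharing for the most alike sets of genes, with the GG of the NGG motif in capitals.
AKR1C1, AKR1C2, AKR1C3 and AKR1C4: tacaataatgaggagcaggttGG
ADH1A, ADH1B and ADH1C: aatgcaaagcagctgtgctatGG
The AKR1C site lay at chr10:4965992-4966014 (plus strand) in AKR1C1, chr10:5001581-5001603 (minus strand) in AKR1C2, chr10:5096488-5096510 (plus strand) in AKR1C3 and chr10:5200259-5200281 (plus strand) in AKR1C4. The ADH1 site lay on the minus strand at chr4:99287636-99287658 in ADH1A, chr4:99318857-99318879 in ADH1B and chr4:99347817-99347839 in ADH1C. The sequences of the library's own guides were not used here, so whether a given guide cuts 1 or several of these genes was not tested.

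The libraries held 25599416 reads (apilimod), 26276517 reads (DMSO) and 24695476 reads (initial population). Guides against the 37 genes took 1.82% of the reads in apilimod, 1.78% in DMSO and 1.66% in the initial population, and their median guide had 1022, 1064 and 917.5 reads in the same order. A guide was used where it had at least 100 reads in the initial population, which kept 359 of the 370 guides, all 10 guides for 27 genes and between 8 and 10 guides for every gene. The log2 change of a guide is the log2 ratio of its share of reads between 2 libraries, after adding 1 read, and the gene score is the mean over the gene's guides minus the median of 487 intergenic control guides, which cut outside genes. A guide whose knockout slows growth loses reads, and a gene was called lower or higher where its score reached 1.5-fold (0.58 on the log2 scale) and at least 75% of its guides lay on that side of the control median. SDs are over guides within a library pair, and guides against 1 gene share their target, so an SD measures agreement between guides and not between cultures.

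Knockout of these genes was nearly without a call in either arm. After 14 days in apilimod, 1 of the 37 genes was called lower than in the initial population and 0 were called higher, against 20.0% and 0.202% of the 2969 genes scored. In DMSO, 0 of 37 were called lower and 0 higher, against 12.8% and 0.0337% of all genes. Between apilimod and DMSO, 0 of 37 were called lower and 0 higher, against 1.35% and 0.808% of all genes. The single call was ALDH1B1, a mitochondrial aldehyde dehydrogenase that oxidises acetaldehyde and other short aldehydes.

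The scores of the 37 genes formed a narrow band around the control guides. Their median was -0.14 in apilimod (all genes, -0.26) and -0.06 in DMSO (all genes, -0.17), and 35 and 37 of the 37 genes lay within 1.5-fold of the control median. That left 5.41% and 0% of the members at or past 1.5-fold, against 22.7% and 14.4% of all genes, so most of the library lay within it too. At least 75% of guides lay below the control median for 12 members in apilimod and 7 in DMSO, or 32.4% and 18.9% of them, against 40.1% and 28.8% of all genes. Every used guide lay below it for 2 members in apilimod (ALDH16A1, and ALDH1A2 with 1 guide at -0.003), 0 in DMSO and 0 in apilimod relative to DMSO, against 8.69%, 6.74% and 0.505% of all genes. Both 14-day arms share the initial population, so a member's score in apilimod and in DMSO is not independent. The sign of the small medians rests on the zero point, since with the median of all used guides in place of the control guides the members' median was 0.11 in apilimod (all genes, -0.02) and 0.07 in DMSO (all genes, -0.04).

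**Figure D1:**
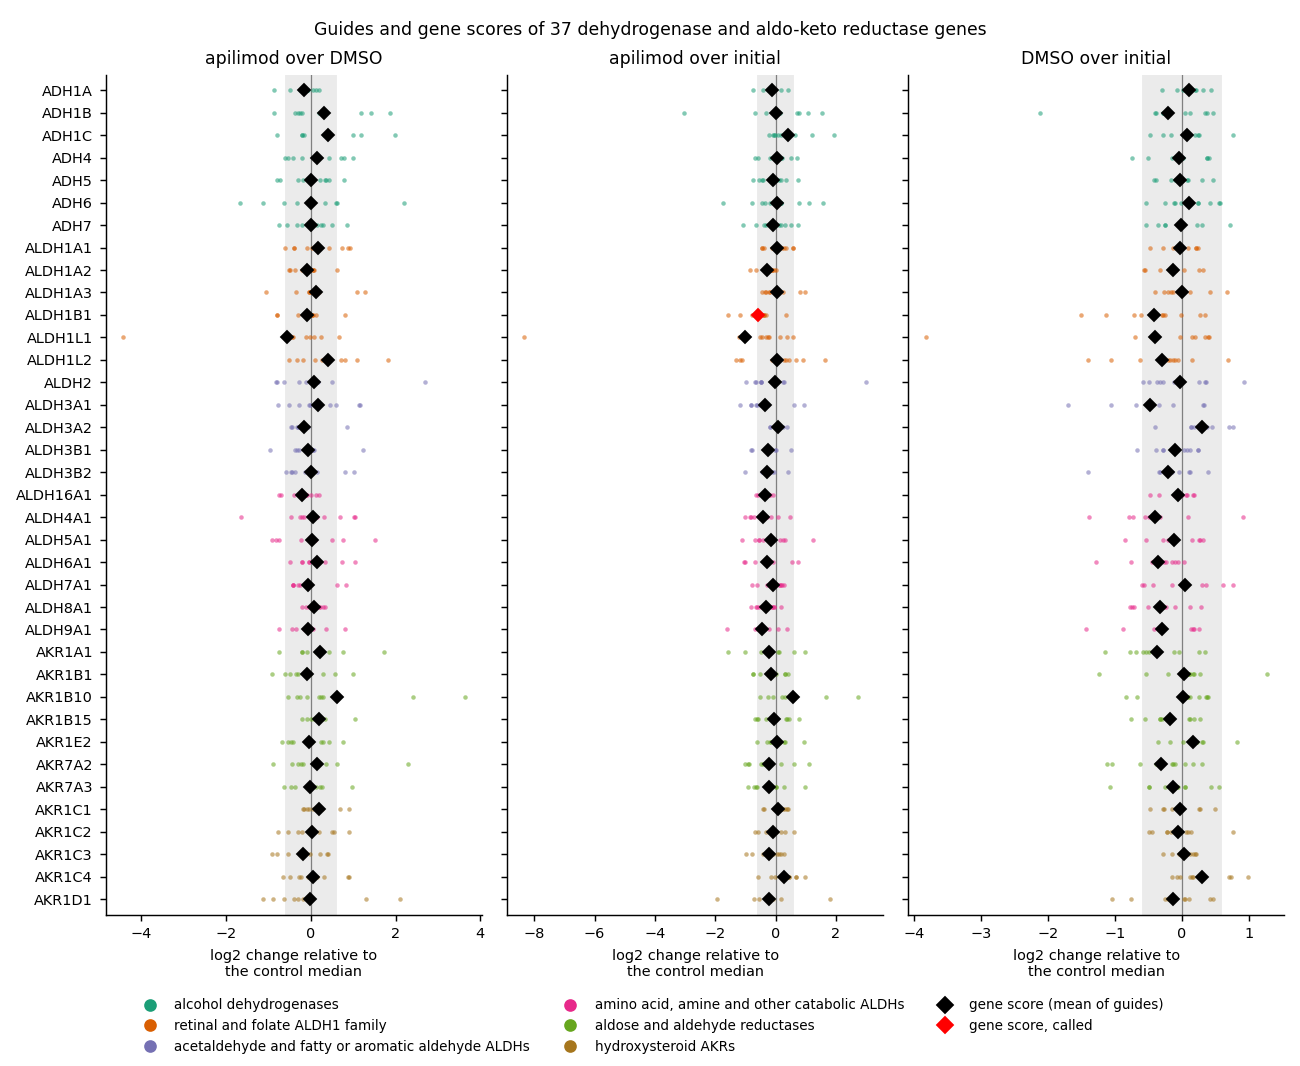
Log2 change of each used guide (small points, coloured by role) and gene score (diamonds, mean of guides) of the 37 genes relative to the median control guide, for apilimod over DMSO, apilimod over the initial population, and DMSO over the initial population. The grey band spans 1.5-fold either way, and the red diamond marks the called gene, ALDH1B1 in apilimod over the initial population, at -0.59.

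ALDH1B1 carried the only call. Its 10 guides summed to 8748 reads in apilimod, 9856 in DMSO and 10369 in the initial population, so the summed reads were lowest in apilimod and highest at day 0. The gene score was -0.59 in apilimod (SD 0.52, 9 of 10 guides below the control median) and -0.42 in DMSO (SD 0.59, 8 of 10 guides below). The apilimod score lay at 1.5-fold, at the edge of the rule, and the call held in 7 of the 10 sets of 9 guides, in which the score ran between -0.69 and -0.48. Between arms the gene stood near 0, with a score of -0.10 (SD 0.46) and 5 of 10 guides on each side.

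Single guides of ALDH1B1 differed in which arm they were lowest. Guide 4, numbered as in the library, had 259 reads in apilimod, 462 in DMSO and 645 in the initial population. Guide 7 had 539, 538 and 1011 reads in the same order, equal in both arms and lower than at day 0. Guide 6 had 782, 457 and 1115 reads and was lower in DMSO than in apilimod. Guide 9, with 1290, 1256 and 846 reads, was above the control median in both arms, and guide 3, with 1318, 2312 and 1636, in DMSO only. ALDH1B1 lies at chr9:38392702-38398661. Its closest relative is ALDH2, the main mitochondrial enzyme of acetaldehyde clearance, at 73.5% protein identity with 1 shared candidate target, and ALDH2 scored -0.03 in apilimod (SD 1.14) and -0.03 in DMSO (SD 0.48), with 11484, 11440 and 11027 reads in apilimod, DMSO and the initial population. The wide SD in apilimod came with guide 6 of ALDH2, which had 1529 reads in apilimod, 239 in DMSO and 158 at day 0.

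ALDH1L1 had the lowest score in apilimod without meeting the rule, and 1 guide set that value. ALDH1L1 is the cytosolic 10-formyltetrahydrofolate dehydrogenase, which removes one-carbon units from folate. Its guide 4 had 0 reads in apilimod, 21 in DMSO and 266 in the initial population, which is at least 91.9-fold lower in apilimod than at day 0 and at least 6.82-fold lower than in DMSO, taking 3 reads in the apilimod library as the floor. The gene score was -1.02 in apilimod (SD 2.62, 7 of 10 guides below) and -0.40 in DMSO (SD 1.27, 5 of 10 below), and -0.56 for apilimod over DMSO (SD 1.42). With that guide at its floor the scores were -0.82 in apilimod and -0.36 for apilimod over DMSO, still the lowest of the 37 genes, so that the members' medians did not move. Without guide 4 the other 9 guides scored -0.21 in apilimod (SD 0.53), -0.02 in DMSO (SD 0.41) and -0.13 for apilimod over DMSO (SD 0.41). Of the 10 sets of 9 guides, 3 met the rule for a lower call in apilimod and 3 for apilimod over DMSO. Guide 6 was the next lowest, with 679 reads in apilimod, 945 in DMSO and 1308 in the initial population.

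ALDH1L2, the mitochondrial counterpart of ALDH1L1 at 74.3% protein identity, stood near the other end of the comparison between arms. Its score for apilimod over DMSO was 0.42 (SD 0.71, 7 of 10 guides above), with 8588 reads in apilimod, 6668 in DMSO and 6156 in the initial population. Its guide 10 alone had 2551 reads in apilimod against 730 in DMSO and 681 at day 0, and scores without 1 guide ran between 0.26 and 0.52. The score was 0.05 in apilimod (SD 0.99) and -0.29 in DMSO (SD 0.60).

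**Figure D2:**
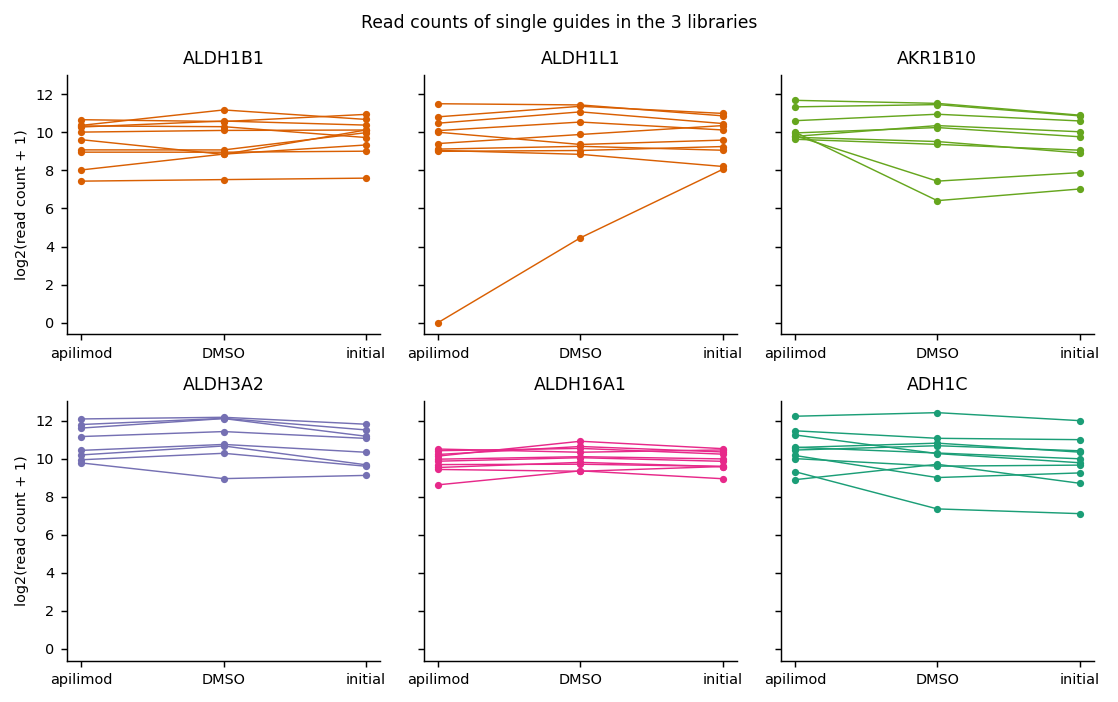
Read counts of single used guides in the apilimod, DMSO and initial libraries, as log2 of the count plus 1, for ALDH1B1, ALDH1L1, AKR1B10, ALDH3A2, ALDH16A1 and ADH1C. Each line is 1 guide; guide 4 of ALDH1L1 (0, 21 and 266 reads) and guides 5 and 9 of AKR1B10 leave the band of the other guides.

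Among the alcohol dehydrogenases, scores in both arms stayed close to the control guides. The 7 scores ran between -0.14 and 0.40 in apilimod (median 0.02) and between -0.22 and 0.10 in DMSO (median -0.02), and 0 were called. ADH1C, a class I enzyme that oxidises ethanol, had the highest score of the group in apilimod, 0.40 (SD 0.68), with 17789 reads in apilimod, 15806 in DMSO and 12641 in the initial population. Its guides 3 and 4 carried much of that value, at 2426 and 636 reads in apilimod, 1228 and 163 in DMSO, and 880 and 137 at day 0. ADH1B, the neighbouring class I gene, scored 0.02 in apilimod (SD 1.27) and -0.22 in DMSO (SD 0.74), and its 10 guides disagreed. Guide 2 of ADH1B had 77 reads in apilimod, 143 in DMSO and 531 at day 0, while guide 10 had 1288, 355 and 370. ADH1A, the third class I gene, scored -0.14 in apilimod (SD 0.33) and 0.10 in DMSO (SD 0.22), with 18711, 20279 and 15916 reads in apilimod, DMSO and the initial population. ADH5, which oxidises the glutathione adduct of formaldehyde and was picked for that role after its values were seen, scored -0.09 in apilimod (SD 0.45) and -0.03 in DMSO (SD 0.27), with 24214, 24222 and 21065 reads.

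The ALDH1 genes include the retinal dehydrogenases ALDH1A1, ALDH1A2 and ALDH1A3, which make retinoic acid, beside ALDH1B1 and the folate enzymes above. The 6 genes had a median of -0.12 in apilimod and -0.22 in DMSO, where all 6 lay below 0 (ALDH1A3 only just; 4 of 6 with the median of all used guides as the zero point). ALDH1A1, whose product is often credited with the ALDH activity used to sort tumour cells, had the highest apilimod score of the 6 at 0.06. ALDH1A2 had all of its used guides below the control median in apilimod, guide 8 only just (-0.003). Its score there was -0.30 (SD 0.27), with 9411 reads in apilimod, 10392 in DMSO and 9527 in the initial population.

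The enzymes of acetaldehyde, fatty and aromatic aldehydes (ALDH2, ALDH3A1, ALDH3A2, ALDH3B1 and ALDH3B2) included some of the lowest and highest scores in DMSO. ALDH3A1, which oxidises aromatic and medium-chain aldehydes and is abundant in the cornea, scored -0.48 in DMSO (SD 0.60, 8 of 10 guides below), beside ALDH1B1 and ALDH4A1 at -0.42 and -0.41, and -0.37 in apilimod (SD 0.66, 8 of 10 below). Its guides summed to 8517 reads in apilimod, 7183 in DMSO and 8690 in the initial population, and guide 1 went lowest, with 85, 57 and 160 reads. ALDH3A2, the fatty aldehyde dehydrogenase whose loss causes Sjögren-Larsson syndrome, scored 0.29 in DMSO (SD 0.37, 7 of 8 guides above), level with AKR1C4, and 0.06 in apilimod (SD 0.19). It had 17688 reads in apilimod, 21263 in DMSO and 14371 in the initial population, and 7 of its 8 guides lay below the control median for apilimod over DMSO, at a score of -0.16 (SD 0.43). ALDH3A1 and ALDH3A2 are neighbours on chr17, within chr17:19648136-19748943, and shared 66% of protein residues.

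The ALDHs of amino acid, amine and other breakdown (ALDH4A1, ALDH5A1, ALDH6A1, ALDH7A1, ALDH8A1, ALDH9A1 and ALDH16A1) all scored below 0 in apilimod, between -0.44 and -0.09 with a median of -0.33, and 6 of 7 did so in DMSO (median -0.30), counts that were 5 of 7 and 4 of 7 with the median of all used guides as the zero point. None passed the rule, and 80.4% of all genes lay below 0 in apilimod and 75.5% in DMSO. ALDH9A1, which oxidises aminobutyraldehyde and a precursor of carnitine, had the lowest score of the group in apilimod, -0.44 (SD 0.52, 8 of 10 guides below), with 11493 reads in apilimod, 13503 in DMSO and 12285 in the initial population. ALDH4A1, the mitochondrial enzyme that completes proline breakdown to glutamate, scored -0.43 in apilimod (SD 0.46) and -0.41 in DMSO (SD 0.60), with 8 of 10 guides below in each arm and 8383, 7666 and 9228 reads. ALDH16A1, an atypical member of the superfamily, had the guides that agreed best in apilimod, with all 10 below the control median in apilimod, a score of -0.35 and an SD of 0.18 (-0.10 with the median of all used guides as the zero point). In DMSO it scored -0.06 (SD 0.21, 6 of 10 below), and for apilimod over DMSO -0.22 (SD 0.32, 7 of 10 below), with 9704, 11472 and 10110 reads in apilimod, DMSO and the initial population.

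Among the aldose and aldehyde reductases, AKR1B10 had the highest score of the 37 genes in apilimod. AKR1B10 reduces retinal and lipid-derived aldehydes, and it scored 0.57 in apilimod (SD 1.02, 6 of 9 guides above), 0.02 in DMSO (SD 0.46) and 0.62 for apilimod over DMSO (SD 1.42, 5 of 9 above). The last value passed 1.5-fold but not the share of guides. With 1 of its 9 guides left out at a time, AKR1B10 met the rule for a higher call in apilimod in 3 sets, and for apilimod over DMSO in 0. Guide 9 had 1034 reads in apilimod, 84 in DMSO and 129 in the initial population, and guide 5 had 909, 172 and 235, whereas the other 7 guides had log2 ratios of apilimod over DMSO between -0.54 and 0.29. With guides of at least 300 initial reads, which leaves out both, AKR1B10 scored 0.12 in apilimod and -0.03 for apilimod over DMSO. Its neighbour AKR1B15, with 41.6% of its candidate targets also in AKR1B10, scored -0.05 in apilimod (SD 0.51) and 0.20 for apilimod over DMSO (SD 0.34). The other members of the group (AKR1A1, AKR1B1, AKR1E2, AKR7A2 and AKR7A3) lay between -0.24 and 0.05 in apilimod. In DMSO these 5 lay between -0.38 and 0.16, with AKR1A1 lowest (SD 0.48, 8 of 10 guides below). AKR1E2 was the highest of the group in DMSO, at 0.16 (SD 0.32, 8 of 10 guides above), with 13521 reads in apilimod, 13900 in DMSO and 10591 at day 0.

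The hydroxysteroid AKRs reduce keto groups of steroids and prostaglandins (AKR1C1, AKR1C2, AKR1C3 and AKR1C4) or the steroid double bond in bile acid synthesis (AKR1D1). Their scores ran between -0.23 and 0.28 in apilimod and between -0.14 and 0.29 in DMSO, and 0 of 5 were called. AKR1C4, the liver form, stood highest in both arms, at 0.28 in apilimod (SD 0.46) and 0.29 in DMSO (SD 0.38), with 7 of 10 guides above in each and 13115, 12345 and 9236 reads in apilimod, DMSO and the initial population. AKR1C3, which makes testosterone and prostaglandin F, scored -0.22 in apilimod (SD 0.41) and 0.03 in DMSO (SD 0.16), with 18943, 20402 and 17032 reads; with the median of all used guides as the zero point its apilimod score was 0.02. AKR1C1, which inactivates progesterone, scored 0.09 in apilimod (SD 0.29) and -0.03 in DMSO (SD 0.30), with 12278, 10795 and 9189 reads. AKR1C2, the nearest relative of AKR1C1, scored -0.09 in apilimod (SD 0.42) and -0.06 in DMSO (SD 0.38).

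Between apilimod and DMSO, the arms of the drug comparison, the median score of the 37 genes was 0.03 and that of all genes -0.02. Of the 37, 14 lay below 0, or 37.8%, against 53.7% of all genes. Single guides differed less, with 52.9% of the members' guides below 0 against 54.3% of all gene-targeting guides. With the median over guides in place of the mean, the members' median was -0.015 (all genes, -0.053). The gene scores, as means over guides, ran between -0.56 (ALDH1L1) and 0.62 (AKR1B10), and both ends rested on 1 or 2 guides, as given above. Below 0, the next scores were those of ALDH16A1 (-0.22), AKR1C3 (-0.19) and ADH1A (-0.17), with SDs of 0.32, 0.46 and 0.33. Above 0, the next were ALDH1L2 (0.42), ADH1C (0.40) and ADH1B (0.30), with SDs of 0.71, 0.81 and 0.90. ADH1A turned to 0.18 with a minimum of 30 initial reads, which lets in its guide 7. AKR1C3 turned to 0.04 with guides 1, 2, 4, 6 and 8, the odd-numbered places when guide names are sorted. ADH1B had 5 of 10 guides on each side, and stood at -0.008 with the median over guides and 0.02 with the guides of odd-numbered places. The study's methods scale each arm to 0 at control guides and -1 at guides against core essential genes, and take the z-scored difference. Those essential genes are not named there, so 29 nucleotide synthesis genes took their place here. On that substitute scale the members had a median z of 0.04 and ran between -1.76 (ALDH1L1) and 2.04 (AKR1B10), with 0 at or below -2 and 1 at or above 2, against 1.45% and 2.80% of all genes. Over all genes, the calls between the arms were 40 lower and 24 higher, a split that turned to 29 lower and 46 higher with the median of all used guides as the zero point. Relative to the initial population the same change of zero point gave 324 lower and 72 higher in apilimod, against 595 and 6.

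**Figure D3:**
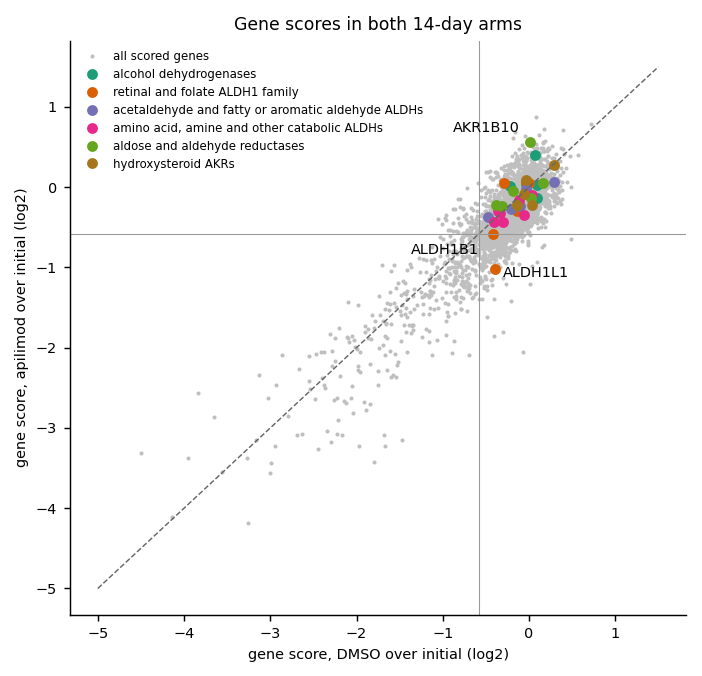
Gene score in apilimod (vertical axis) against gene score in DMSO (horizontal axis), both log2 over the initial population, for all 2969 scored genes (grey) and the 37 genes by role (coloured). The dashed line marks equal scores and the thin lines 1.5-fold below the control median; the 37 genes sit in the dense upper right, with ALDH1B1 (-0.59) and ALDH1L1 (-1.02) below the horizontal line.

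The shares of the members' guides past 2-fold lay between those of the intergenic controls and of all gene-targeting guides. In DMSO, 5.01% of the 359 guides were at least 2-fold lower than in the initial population, against 12.2% of all gene-targeting guides and 2.05% of control guides. In apilimod the shares were 5.85%, 16.1% and 3.08%. For apilimod over DMSO, 1.67% of the members' guides were at least 2-fold lower and 7.80% at least 2-fold higher, against 5.52% and 6.52% of all gene-targeting guides and 0.821% and 10.9% of control guides. Of the 28 members' guides at least 2-fold higher in apilimod than in DMSO, 12 had under 300 reads in the initial population and 16 had 300 or more, while the share of such guides was larger in the scarce class. Of the 31 guides with at least 100 but under 300 initial reads, 38.7% were at least 2-fold higher in apilimod than in DMSO (SD of the log2 ratio 1.53), as were 20.4% of 4749 gene-targeting guides and 51.1% of the 45 control guides in that range. Of the 328 guides with 300 or more, 4.88% were (SD 0.52), against 3.69% of gene-targeting guides and 6.79% of control guides. The median guide of the members had 917.5 initial reads and that of the whole library 651. The pooled shares above therefore compare guides of unlike abundance. Guides 5 and 9 of AKR1B10, guide 4 of ADH1C, guide 6 of ALDH2 and guide 4 of ALDH1L1 all belong to the scarce class, and the part of initial abundance in their ratios was not tested.

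**Figure D4:**
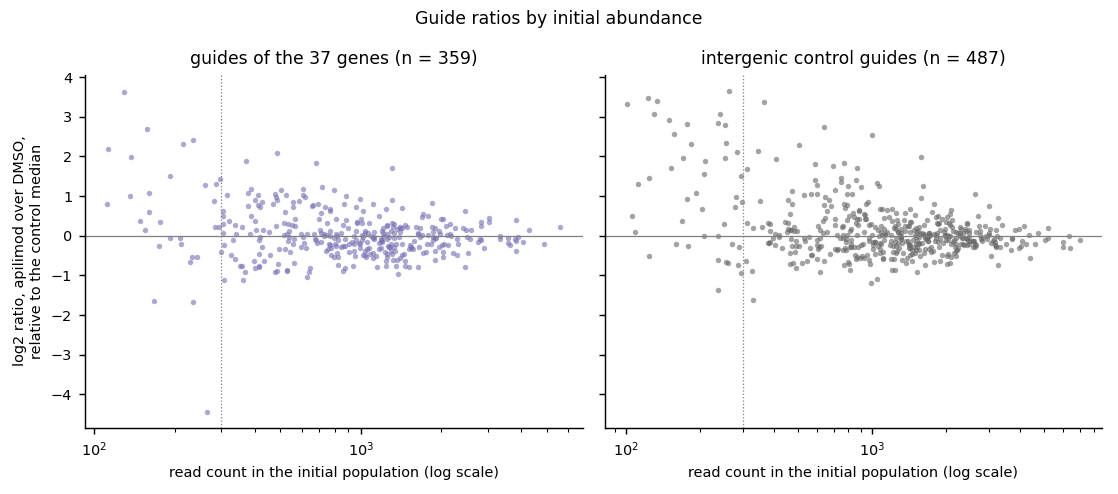
Log2 ratio of apilimod over DMSO relative to the control median (vertical axis) against the read count in the initial population (horizontal log axis) for the 359 guides of the 37 genes (left) and 487 control guides (right). The dotted line marks 300 reads; in both panels the guides left of it spread most, with 38.7% and 51.1% of them at least 2-fold higher in apilimod.

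Members with and without close duplicates had medians near each other. The 13 genes with over 10% of candidate targets in another member had a median of -0.09 in apilimod (8 of 13 below 0) and -0.06 in DMSO, and the other 24 had -0.15 (17 of 24 below 0) and -0.09. By cluster of position, the 3 genes on chr1 (ALDH4A1, AKR7A2 and AKR7A3) lay between -0.43 and -0.22 in apilimod and between -0.41 and -0.14 in DMSO. The 5 genes of the chr10 cluster lay between -0.22 and 0.28 in apilimod. ALDH3B1 and ALDH3B2 on chr11 lay at -0.24 and -0.27 in apilimod and -0.10 and -0.21 in DMSO.

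Set beside related enzyme families of the same library, the 37 genes had the lowest share of genes called lower relative to the initial population. They had 2.70% in apilimod and 0% in DMSO, against 20.0% and 12.8% of all genes, and the differences were not tested. The lowest place in DMSO rests on leaving out ALDH18A1, which was called lower in both arms and counted among the other carbonyl oxidoreductases. Of 55 cytochrome P450 genes, 5 were called lower in apilimod (9.09%) and 1 in DMSO (1.82%). Of 47 conjugation enzymes (the UGT, SULT and GST families), 5 (10.6%) and 2 (4.26%) were. Of 43 other carbonyl oxidoreductases such as carbonyl reductases and retinol dehydrogenases, 5 and 5 were, or 11.6% in each arm. These families too lay below the shares of all genes in both arms. The median scores of the P450 genes were -0.12 in apilimod and -0.02 in DMSO, close to those of the 37 genes. ALDH18A1, which carries the family symbol but works in proline synthesis and was left out by the rule, was among the 43 and had all 10 guides below the control median in both arms, at -2.62 in apilimod (SD 1.77) and -2.07 in DMSO (SD 0.79). It was named after its values were seen. Only SDR16C5, an epidermal retinol dehydrogenase, was called between the arms among the 43, higher in apilimod than in DMSO at 0.61 (SD 0.84, 8 of 10 guides above).

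**Figure D5:**
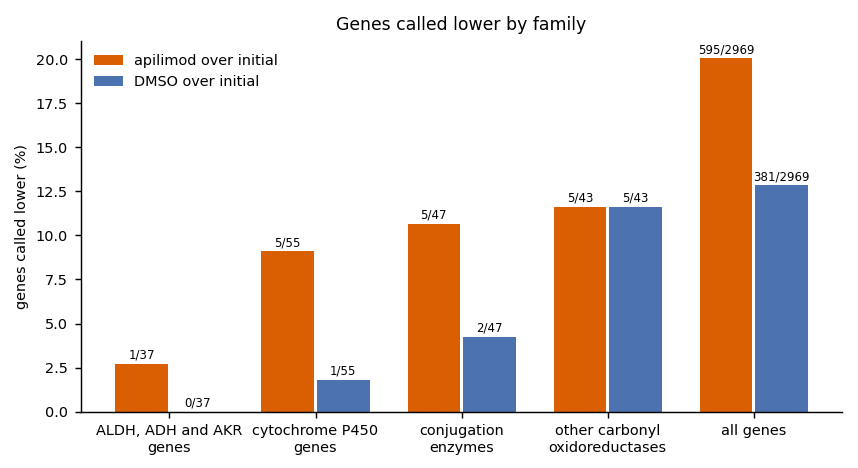
Percent of scored genes called lower (vertical axis) in apilimod over the initial population and in DMSO over the initial population for the 37 genes, cytochrome P450 genes, conjugation enzymes, other carbonyl oxidoreductases and all genes, with the counts above the bars. The bars of the 37 genes, at 1 and 0 genes, are the lowest of the 5 sets. ALDH18A1, called lower in both arms, is counted among the other carbonyl oxidoreductases, and the lowest place in DMSO rests on that.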

How the data were processed

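Genomic DNA of 3 MIA PaCa-2 pools gave 1 library each, with labels defining the groups. The authors deposited raw read counts per guide, unfiltered; by their methods and processing notes, reads were trimmed with cutadapt 4.1, aligned to the guide library with Bowtie2 2.4.5 and counted with MAGeCK 0.5.9.5. Notes also list bcl2fastq and hg38. Guides carry no molecular identifiers, so reads are PCR copies, and the floor of 3 reads covers counting error only. Per-library files and the deposited whole-series table differed in 0 values.

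Guides under 100 initial reads and genes under 6 guides were left out, a pseudocount of 1 was added and counts were divided by library totals, as the study's methods state. In the scaled difference, 29 measured nucleotide synthesis genes replaced the study's unnamed core essential genes at -1. Named were called genes and the 4 lowest and 4 highest of each comparison (16 genes). A called gene's closest paralogue and other carbonyl oxidoreductases called for apilimod over DMSO were also named. Beyond that rule, after their values were seen, came ADH5, ALDH1A1, ALDH1A2, ALDH1A3, ALDH3B1, ALDH3B2, AKR1A1, AKR1B15, AKR1C2 and ALDH18A1. Guides left out for few reads are all given with their genes. The genes and lists were chosen with earlier results of these data known. With 1 library a group no test was run. Mean gene scores of apilimod over DMSO were checked on simulated libraries with known changes. That simulation used the same guide noise at every read count and did not assess calls near 1.5-fold. Alternatives changed the read minimum, pseudocount, averaging, zero point, fold, share of guides and guides used. Python 3.11.15, numpy 2.4.6, pandas 2.3.3 and matplotlib 3.10.9 were used, with GENCODE v44 for positions; protein identity is over the shorter protein.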

Additional observations from a re-analysis of the deposited data

How the results depend on the processing

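The call of ALDH1B1 in apilimod over the initial population held with a minimum of 30 initial reads, where again 1 gene was called. The count of genes called lower there was 0 with a minimum of 300 reads, a pseudocount of 10, the median over guides or a fold of 2. It was also 0 with even-numbered guides and with either other zero point. Those were the median of all guides, and control guides of at least 300 initial reads, an alternative added after seeing the data. Odd and even refer to places in the sorted guide names, where guide 10 follows guide 1. Even places thus hold guides 10, 3, 5, 7 and 9, and odd places guides 1, 2, 4, 6 and 8. The count was 2 with no minimum share of guides (ALDH1B1 and ALDH1L1, 22.4% of all genes). It was 4 with odd-numbered guides (ALDH1B1, ALDH1L1, ALDH3A1 and ALDH4A1, 24.0% of all genes). Genes called higher in apilimod over the initial population were 1 with even-numbered guides (AKR1B10; 1.15% of all genes) and 2 with the median of all guides as the zero point (ADH1C and AKR1B10; 2.43%). In DMSO, 1 gene was called lower with odd-numbered guides (ALDH1B1; 16.3% of all genes). For apilimod over DMSO, odd-numbered guides called 1 gene lower (ALDH1L1; 107 of 2970 genes) and 1 higher (AKR1A1; 105 of 2970 genes), and AKR1B10 was the 1 gene called higher with even-numbered guides (3.14%) and with no minimum share (1.68%). The cause was not tested. The members' median z of 0.04 was 0.016 with complex I genes as the -1 reference and 0.20 with no scaling. Signs were compared over the alternatives that change a score, with the lowest and highest scores without 1 guide. Scores of the 16 genes named by rule kept their sign in 146 of 160 values in apilimod, 149 of 160 in DMSO and 142 of 160 for apilimod over DMSO. These 16 were picked for low or high scores, which favours a kept sign, and the other members were not counted. A fold of 2 called 281 of all genes lower in apilimod, against 595. With 1 library per group no library could be left out, and no paired analysis was possible because each group has a single library.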

Other observations

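The 11 guides left out for under 100 initial reads belong to 10 of the 37 genes, and their counts show how far scarce guides moved. Guide 7 of ADH1A had 318 reads in apilimod, 31 in DMSO and 67 in the initial population. Guide 3 of ALDH3A2 had 167, 67 and 33 reads and guide 5 of the same gene 30, 84 and 36 in the same order, so both guides of 1 gene were highest in different arms. Guide 1 of AKR1B10 had 113, 119 and 50 reads. Guide 9 of ALDH7A1 had 415, 26 and 25 reads and guide 9 of ADH4 had 651, 45 and 38, both far highest in apilimod. So was guide 3 of AKR1D1, with 446, 48 and 61, and guide 9 of ALDH3B2 had 112, 30 and 58. Guide 4 of AKR1C2 (61, 82 and 37) and guide 10 of ALDH3B1 (103, 148 and 92) were highest in DMSO. Guide 3 of ALDH6A1 (18, 34 and 82) was highest at day 0.

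Reads summed over a gene's guides gave other values than the mean over guides. For ALDH1B1 the summed reads of its 10 guides gave a log2 change of -0.52 in apilimod over the initial population, with a 95% counting interval of -0.56 to -0.48 for the sum, and a mean over guides of -0.59. For AKR1B10 the summed reads gave 0.14 for apilimod over DMSO (0.11 to 0.18), against a mean over guides of 0.62, since summing weights guides by their reads. For ALDH1L1 the same sums gave -0.23 in apilimod over the initial population (-0.27 to -0.19), against a mean of -1.02. The intervals treat reads as independent and the zero point as fixed, and they leave out differences between guides and between cultures.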
